A study of Mus musculus with 6 samples.

Results

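The keratins described here are 10 genes that mark the layers of an epithelium: Krt5, Krt14, Krt15, Krt17 and Krt6a of stratified epithelia, and Krt7, Krt8, Krt18, Krt19 and Krt23, of which the first 4 are the classical keratins of simple epithelia. They were chosen by name from the keratin family, and every non-control probe whose transcript accession belonged to one of them was taken. All 10 genes had a probe, and Krt5 had more than 1, giving 11 probes of the 55681 on the array and 10 of the 20660 genes that could be matched. RNA was measured on one-colour microarrays, 1 array for each of 6 samples, in mammary cells of female C57Bl6J mice. The 3 fetal samples were CD31-CD45-Ter119-EpCAM++CD49f+ cells sorted from E18.5 glands after a short collagenase and hyaluronidase digestion. The 3 adult basal samples were sorted from mice 8 to 12 weeks old as EpCAM+CD49f+ cells that were also BP-1- and, like the fetal cells, CD31-CD45-Ter119-, after an overnight digestion. The labels name no transgene or treatment, and the sources call the 3 samples of each population biological replicates without saying how many animals went into one. Age, sorting gate and digestion time differed between the populations together and cannot be told apart.

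Keratins build the intermediate filaments of epithelial cells. A filament subunit is always a pair of a type I (acidic) and a type II (basic or neutral) keratin, so that the cell makes them in matched partners, and a keratin without a partner is degraded. In the adult mammary gland Krt5 and Krt14 mark the outer basal, or myoepithelial, layer and Krt8, Krt18 and Krt19 the inner luminal layer. Filaments are anchored to other cells at desmosomes and to the basement membrane at hemidesmosomes. Among the listed genes the type I keratins are Krt14, Krt15, Krt17, Krt19, Krt23 and Krt18. The first 5 of these lie in the type I keratin cluster on chromosome 11, whereas Krt18 lies on chromosome 15 beside the type II genes Krt5, Krt6a, Krt7 and Krt8.

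Start-site sequence is shown for the 4 genes of the chromosome 15 cluster that had a RefSeq promoter window placed on the gene's annotated start, because they include the member with one of the largest differences (Krt5), a simple keratin that also had a lower fetal mean (Krt7), and the classical simple pair Krt8 and Krt18. Each window holds 250 bases before the start and 30 after it, written 5′ to 3′ on the gene's strand (RefSeq, GRCm38.p6). The windows are chr15:101712876-101713155 on the minus strand for Krt5, chr15:101412153-101412432 on the plus strand for Krt7, chr15:102004313-102004592 on the minus strand for Krt8 and chr15:102027966-102028245 on the plus strand for Krt18. Capitals mark matches, on either strand, to any of 4 motifs: TATAAA (the core promoter box), GGGCGG (GC box), GCCNNNGGC (AP-2) and TGACTCA (AP-1).
Krt5: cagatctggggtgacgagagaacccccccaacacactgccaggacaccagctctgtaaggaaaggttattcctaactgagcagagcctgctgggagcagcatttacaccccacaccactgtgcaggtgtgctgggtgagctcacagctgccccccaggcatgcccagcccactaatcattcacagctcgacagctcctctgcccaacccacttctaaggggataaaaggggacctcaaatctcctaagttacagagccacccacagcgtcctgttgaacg
Krt7: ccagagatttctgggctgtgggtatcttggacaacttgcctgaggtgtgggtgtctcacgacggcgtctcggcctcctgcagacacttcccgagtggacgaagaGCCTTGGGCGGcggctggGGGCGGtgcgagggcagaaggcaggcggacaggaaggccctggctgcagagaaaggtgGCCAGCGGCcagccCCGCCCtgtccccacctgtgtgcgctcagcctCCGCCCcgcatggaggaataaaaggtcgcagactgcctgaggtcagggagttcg
Krt8: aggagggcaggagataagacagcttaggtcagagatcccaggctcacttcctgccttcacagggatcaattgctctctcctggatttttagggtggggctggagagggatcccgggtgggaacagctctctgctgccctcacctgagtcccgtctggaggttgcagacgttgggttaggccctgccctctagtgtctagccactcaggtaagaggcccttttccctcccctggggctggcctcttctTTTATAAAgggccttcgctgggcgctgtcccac
Krt18: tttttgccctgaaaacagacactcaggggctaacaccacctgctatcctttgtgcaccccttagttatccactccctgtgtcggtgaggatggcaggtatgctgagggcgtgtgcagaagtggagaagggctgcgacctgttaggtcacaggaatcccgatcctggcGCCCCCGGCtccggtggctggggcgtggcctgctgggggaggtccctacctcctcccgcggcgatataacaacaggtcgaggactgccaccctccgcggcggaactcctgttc

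Of all 32851 RefSeq windows of this length, 13.1% held TATAAA, 34.7% GGGCGG, 15.4% GCCNNNGGC and 4.94% TGACTCA. The Krt7 window held 2 AP-2 matches, with first bases 146 and 70 bases before the start, and 4 GC box matches, at 141, 128, 56 and 24 bases before it, the first of which overlapped an AP-2 match. The Krt18 window held 1 AP-2 match, 83 bases before the start. The Krt8 window held TATAAA on both strands, in overlapping matches that began 3 and 1 bases before the start and ran across it. None of the 4 motifs was found in the Krt5 window with the letters given above, and variants of these letters were not searched. A match is a description of these letters and not evidence of a bound site.

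The signal of every listed keratin was well above background on all 6 arrays, no spot was saturated, and all 11 probes passed the filter on low signal. The share of all probes well above background ran from 76.4% to 83.3% over the arrays. Values below are log2 of the quantile-normalized signal, and each difference is fetal minus adult basal. Probes differ in brightness for reasons other than RNA amount, so levels were compared between populations for 1 probe at a time and not between keratins. A gene was called where the difference was at least 2-fold and the limma p-value, adjusted by Holm's method over all 20448 tested probes, was at most 0.05. The array measures RNA of the whole sorted sample, so fewer cells with a keratin and less of its RNA per cell cannot be told apart.

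The largest differences among the listed genes were those of Krt5, Krt15 and Krt17, keratins of stratified epithelia. Krt5, Krt15 and Krt17 were called, all lower in the fetal cells, with signals 14.9-fold, 14.4-fold and 8.43-fold lower. These 3 of the 10 genes were the only ones called, against 11.1% of all tested probes called in either direction and 5.18% called as higher in adult basal cells. None of the 10 was called as higher in fetal cells, where 5.92% of all tested probes were. The median difference was -1.25 over the 10 genes, -3.08 over the 5 keratins of stratified epithelia and -1.22 over the other 5, beside -0.03 over all tested probes. In 9 of the 10 genes the arrays of the populations did not overlap, 3 with fetal and 6 with adult basal cells higher. Over all tested probes that share was 69.0%, made up of 34.1% with fetal and 35.0% with adult basal cells higher.

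**Figure D1:**
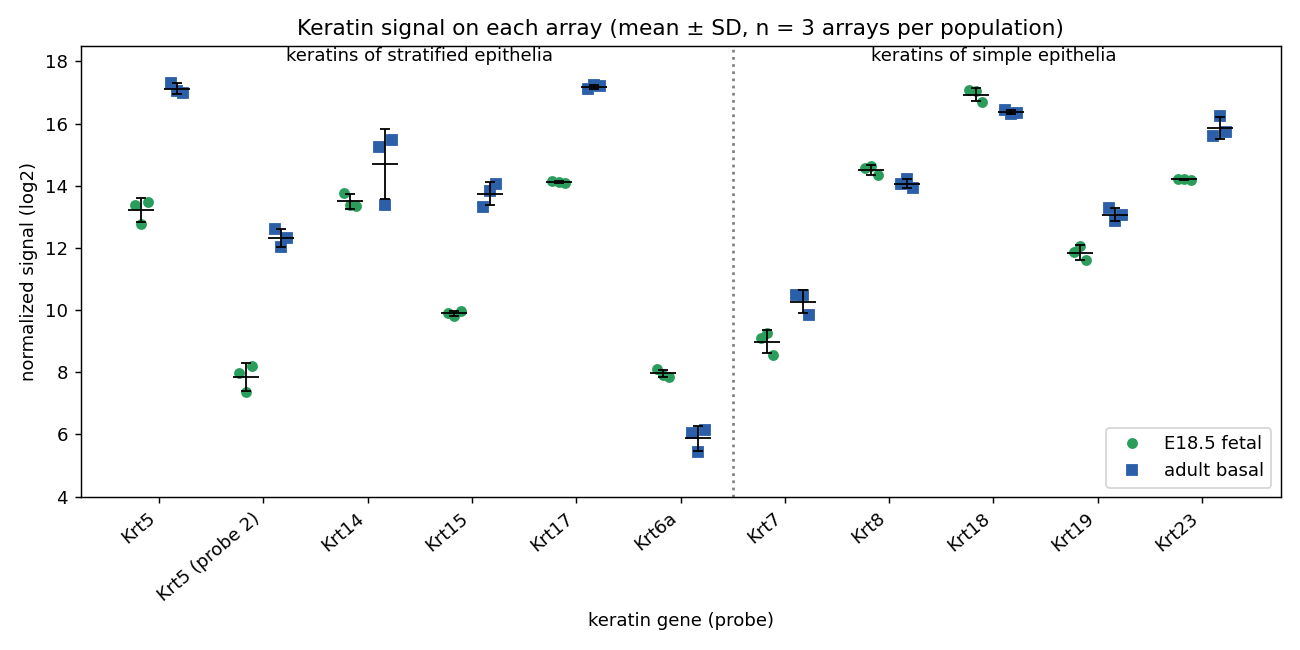
Normalized log2 signal of each keratin probe (y axis) on each array, with the keratin genes on the x axis. Points are arrays, and bars show the mean ± SD of 3 fetal or 3 adult basal arrays. Krt5, Krt15 and Krt17 have wide gaps between the populations, and Krt14 is the gene whose adult arrays are spread from 13.39 to 15.46.

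Krt5, the type II keratin of basal cells, was at 13.39, 12.77 and 13.49 on the fetal arrays and at 17.31, 17.06 and 16.98 on the adult basal arrays. Means were 13.21 ± 0.39 and 17.12 ± 0.18 (SD, n = 3 each). All fetal arrays lay far below all adult arrays, and fetal replicate 2 was the lowest. The difference was -3.90 (95% CI -4.38 to -3.42, limma adjusted p = 0.00394). The second Krt5 probe gave 7.97, 7.36 and 8.22 against 12.61, 12.02 and 12.33. Its difference was -4.48 (95% CI -5.05 to -3.90, limma adjusted p = 0.00549), and fetal replicate 2 was again the lowest array. The call of Krt5 depended on single arrays: its limma adjusted p was 0.0563 without fetal replicate 1 and 0.0508 without adult basal replicate 1, with the difference between -4.04 and -3.68 when any 1 array was left out.

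Krt15, a type I keratin of basal keratinocytes, was at 9.89, 9.80 and 9.98 on the fetal arrays and at 13.33, 13.83 and 14.06 on the adult arrays. All fetal arrays lay below all adult arrays, with an SD of 0.09 over the fetal and 0.37 over the adult arrays. The difference was -3.85 (95% CI -4.29 to -3.41, limma adjusted p = 0.0024), and the p rose to 0.0569 without fetal replicate 1. Krt17, a type I keratin of hair follicles and of epithelium under stress, was at 14.14, 14.12 and 14.08 against 17.11, 17.25 and 17.21. Its replicates were the tightest pair of groups among the listed genes that were called, with SDs of 0.03 and 0.07. The difference was -3.08 (95% CI -3.30 to -2.85, limma adjusted p = 9.1e-05), and Krt17 alone was called whichever array was left out.

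Krt14, the type I partner of Krt5, was the only listed gene whose populations overlapped. Its signals were 13.78, 13.37 and 13.36 in fetal cells against 15.25, 13.39 and 15.46 in adult basal cells. Adult basal replicate 2 lay among the fetal arrays, whereas the other 2 adult arrays lay above all of them. The mean was 13.50 ± 0.24 in fetal and 14.70 ± 1.14 in adult basal cells (SD, n = 3 each), a difference of -1.20 (95% CI -2.39 to -0.00058) that was not called (limma adjusted p = 1). The processed signals before normalization were 14774, 12463 and 11837 in fetal cells against 38107, 8371 and 39986 in adult basal cells. On that scale adult basal replicate 2 was the lowest of the 6 arrays, and the other 2 adult arrays were again the highest. Without adult basal replicate 2 the difference was -1.85, and it was still not called (limma adjusted p = 0.216). It was -0.92 without adult basal replicate 1, -0.82 without replicate 3 and -0.80 with slide as a block, all under 2-fold.

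Adult basal replicate 2 was 1.96 below the mean of the other 2 adult arrays for Krt14. Of the 20448 tested probes, 185 (0.905%) were at least as far below on that array. For Krt5 the same gap was -0.09 (-0.45 for its second probe), for Krt15 0.13 and for Krt17 0.09, and for Krt6a, the next furthest below, -0.68. More probes stood at least 2-fold away from the other adult arrays on adult basal replicate 2 (855, 4.18%) than on replicate 1 (428, 2.09%) or replicate 3 (514, 2.51%). Correlations between adult arrays over the tested probes were 0.981 and 0.983 for pairs with replicate 2 and 0.990 for the pair without it. Adult basal replicate 2 also had the most spots flagged as outliers, 326, where the other arrays had 104 to 184. The part of this array in the Krt14 value, beyond the value without it given above, was not tested.

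The 3 genes whose pattern over the 6 arrays was most like that of Krt14 were Bicral, Zfc3h1 and Tom1l2, among 19779 probes well above background on every array. Likeness was the root mean square difference between mean-centred log2 values, 0.0870 for Bicral, 0.124 for Zfc3h1 and 0.175 for Tom1l2. Bicral was at 8.00, 7.79 and 7.71 on the fetal arrays and at 9.41, 7.62 and 9.71 on the adult arrays. Like Krt14, it was at the fetal level on adult basal replicate 2 and above it on the other 2 adult arrays. Over 6 arrays such a likeness is a description only.

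**Figure D2:**
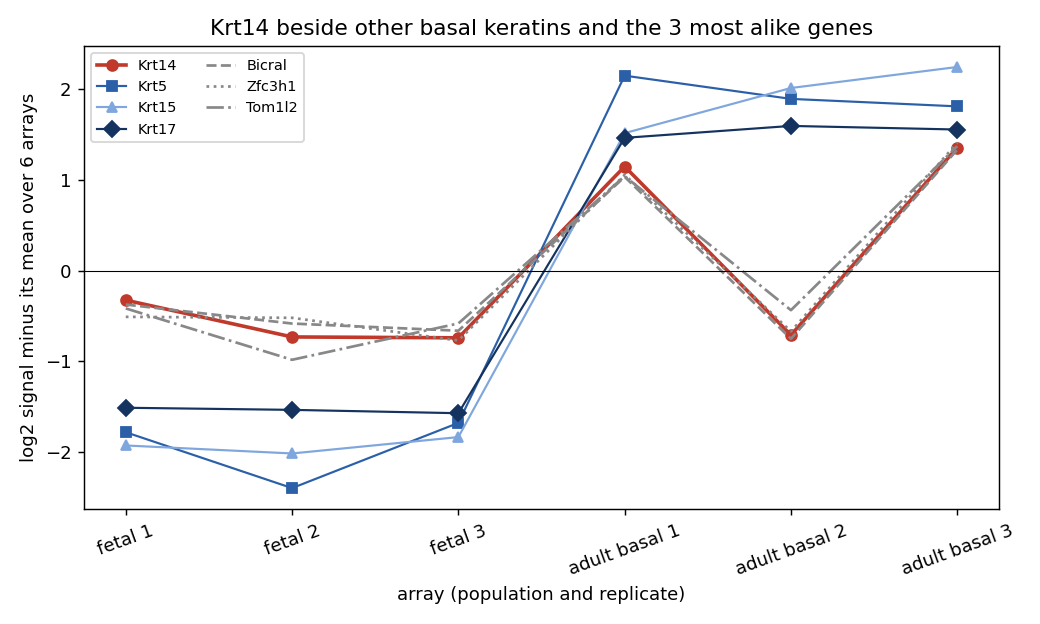
Log2 signal minus its mean over the 6 arrays (y axis) on each array (x axis), for Krt14, other keratins of stratified epithelia and the 3 genes with the most alike pattern, with lines that only join the points of a gene. Krt14 dips on adult basal replicate 2, where Bicral, Zfc3h1 and Tom1l2 dip too. Krt15, Krt17 and the first Krt5 probe differ there from the mean of the other 2 adult arrays by 0.13, 0.09 and -0.09.

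Krt6a, a type II keratin induced in wounded and fast-growing epithelium, had the opposite sign from the rest of its group. It was at 8.10, 7.92 and 7.86 on the fetal arrays and at 6.05, 5.43 and 6.15 on the adult arrays. All fetal arrays lay above all adult arrays, and the difference was 2.09 (95% CI 1.62 to 2.55), which was not called (limma adjusted p = 0.222). The adult mean of 5.88 lay under the low-signal boundary of 5.95, so Krt6a passed the filter only through the fetal arrays. It was called without adult basal replicate 2 (1.86, limma adjusted p = 0.0281). Krt6a has a near-identical neighbour, Krt6b, and Krt14, Krt16 and Krt17 are close relatives too, so that probes of one could take up RNA of another. Krt6b was at 8.08 ± 0.08 and 7.97 ± 0.24, and Krt16 at 15.08 and 15.23 in fetal and adult basal cells (means, n = 3 each). Their differences were 0.11 (95% CI -0.22 to 0.45) and -0.15 (95% CI -0.55 to 0.25), and neither was called. Krt6b and Krt16 were picked for this comparison after their values were seen.

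None of the other 5 listed keratins was called by limma with Holm adjustment. All 5 had an unadjusted p under 0.05, as did 64.7% of all tested probes, and 3 (Krt7, Krt19 and Krt23) passed with Benjamini-Hochberg adjustment at 2-fold, where 30.0% of all tested probes passed. By that rule 7 of the 10 listed genes passed. Krt8, the type II keratin of luminal cells, was at 14.57, 14.63 and 14.34 on the fetal arrays and at 14.07, 14.21 and 13.93 on the adult arrays. The lowest fetal array was above the highest adult array, but the difference was only 0.44 (95% CI 0.15 to 0.74). Krt18, its type I partner, was at 17.07, 17.06 and 16.68 against 16.43, 16.30 and 16.36. It was higher on every fetal array than on any adult array, least so on fetal replicate 3, with a difference of 0.58 (95% CI 0.26 to 0.89). For both genes the interval lay below the 2-fold limit of 1. The patterns most like that of Krt18 over the 6 arrays were those of Pclo, Akap13 and Trim2, with root mean square differences of 0.0409, 0.0417 and 0.0623.

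The other 3 keratins of this group had lower fetal means, unlike Krt8 and Krt18. Krt19, a type I keratin without the usual tail domain, was at 11.87, 12.07 and 11.61 on the fetal arrays and at 13.28, 12.87 and 13.05 on the adult arrays, a difference of -1.22 (95% CI -1.59 to -0.84, limma Benjamini-Hochberg adjusted p = 0.000411). Krt7, a type II keratin of ducts and glands, was at 9.11, 9.27 and 8.56 against 10.48, 10.48 and 9.85, a difference of -1.29 (95% CI -1.86 to -0.72, limma Benjamini-Hochberg adjusted p = 0.00253). Replicate 3 was the lowest array of both populations for Krt7. Krt23, a type I keratin, was at 14.21, 14.22 and 14.18 against 15.60, 16.25 and 15.73. Its fetal arrays were the closest together of any listed gene (SD 0.02), and the difference was -1.65 (95% CI -2.06 to -1.25, limma Benjamini-Hochberg adjusted p = 0.000126). By chromosome, all 5 listed genes on chromosome 11 had a lower fetal mean, and on chromosome 15 Krt5 and Krt7 had a lower and Krt6a, Krt8 and Krt18 a higher one.

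**Figure D3:**
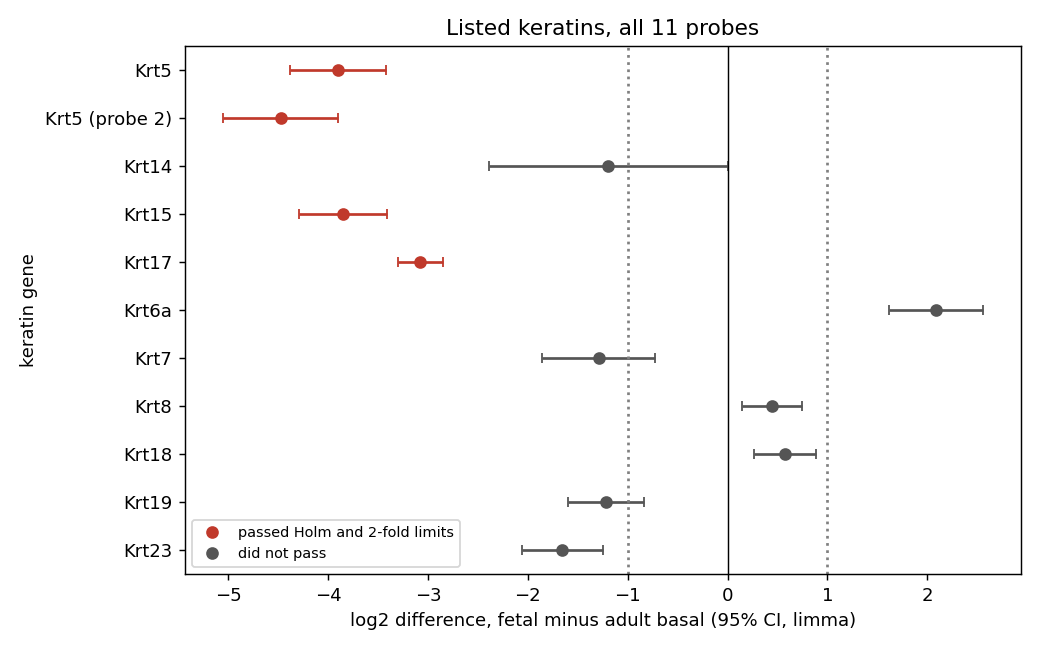
Log2 difference, fetal minus adult basal (x axis), with its 95% confidence interval from limma, for each keratin probe (y axis), with the called genes in red and dotted lines at a 2-fold difference. The intervals of Krt5, Krt15 and Krt17 lie far below 0, that of Krt14 is the widest and reaches -0.00058, and only Krt6a, Krt8 and Krt18 lie above 0.

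Slide and scan run coincided, with fetal replicate 1 and adult basal replicates 1 and 3 on slide 1 and the other 3 arrays on slide 2. Within slide 1 and slide 2 the differences were -3.76 and -3.93 for Krt5, -3.81 and -3.94 for Krt15, and -3.02 and -3.15 for Krt17. These genes differed by nearly the same amount on both slides. For Krt14 the values were -1.58 on slide 1 and -0.03 on slide 2, which held adult basal replicate 2. Krt6a gave 2.00 and 2.47, Krt23 -1.45 and -2.05, Krt19 -1.29 and -1.03, and Krt7 -1.05 and -1.57. Krt8 gave 0.57 and 0.28, and Krt18 0.67 and 0.57. With slide as a block Krt5, Krt15 and Krt17 were still called, and Krt6a was called as well (2.23, limma adjusted p = 0.0432).

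Krt5 with Krt14, Krt8 with Krt18 and Krt7 with Krt19 were then compared within each array. The value was the type II log2 signal minus the type I log2 signal. The size of such a difference depends on the probes, and only its shift between populations is read. For Krt5 minus Krt14 it was -0.39, -0.60 and 0.12 in fetal cells against 2.06, 3.66 and 1.52 in adult basal cells. All adult arrays lay above all fetal arrays, a shift of -2.71 for fetal minus adult basal (exact permutation p = 0.1, two-sided, the smallest that 3 arrays against 3 allow, and 0.3 after Benjamini-Hochberg adjustment over the 3 pairs). The highest adult value was that of replicate 2, the array with low Krt14, and without it the shift was -2.08. Krt5 was set against Krt14 only. The other listed type I keratins of stratified epithelia, Krt15 and Krt17, differed by -3.85 and -3.08, beside -3.90 for Krt5. The shift of Krt5 against these was not tested, so the value describes Krt5 and Krt14 alone. For Krt8 minus Krt18 the values were -2.49, -2.43 and -2.34 against -2.36, -2.09 and -2.42. These overlapped, and the shift was -0.13 (exact permutation p = 0.4). For Krt7 minus Krt19 they were -2.76, -2.80 and -3.05 against -2.80, -2.39 and -3.20. These overlapped too, with a shift of -0.07 (exact permutation p = 1). This permutation test cannot reach 0.05 with 3 arrays against 3, and whether the shifts of the pairs differed from one another was not tested.

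**Figure D4:**
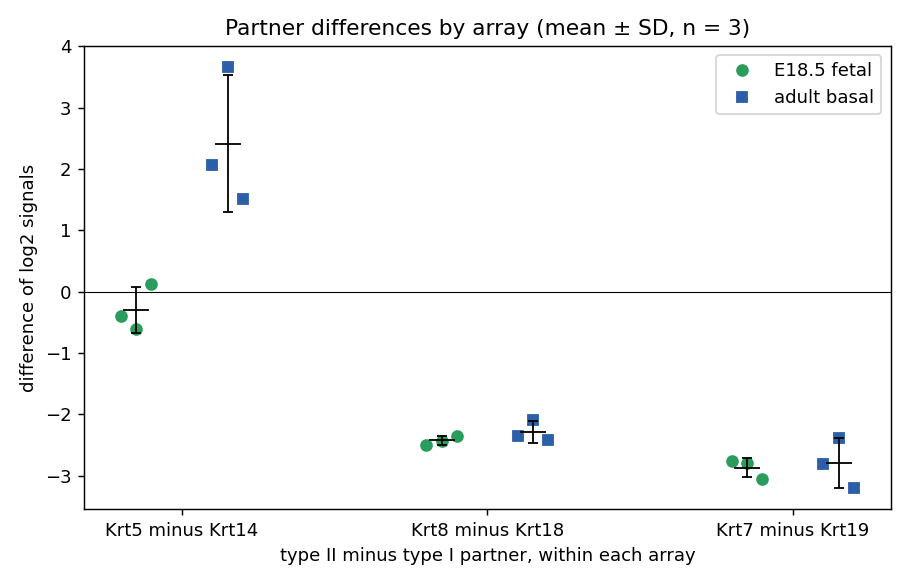
Type II minus type I log2 signal within each array (y axis) for the 3 partner pairs (x axis). Points are arrays, and bars show the mean ± SD of 3 fetal or 3 adult basal arrays. Krt5 minus Krt14 separates the populations (means -0.29 and 2.41), and the other pairs overlap.

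Other keratins on the array were described for comparison. Of 43 genes with a probe, 26 passed the filter on low signal and 17 did not. Of the 26, 3 were called (11.1% of all tested probes), with a median difference of -0.09, and in 12 the arrays of the populations did not overlap (69.0% of all tested probes). Krt13, a type I keratin of the upper layers of moist stratified epithelia, was lower in fetal cells, at 10.72 ± 0.12 against 13.03 ± 0.22 (difference -2.30, limma adjusted p = 0.0108). Krt42, a type I keratin, was also lower, at 10.63 ± 0.12 against 12.63 ± 0.16 (difference -2.00, limma adjusted p = 0.012). Krt10, the type I keratin of the upper layers of the epidermis, was higher in fetal cells, at 10.14 ± 0.10 against 8.67 ± 0.0044 (difference 1.47, limma adjusted p = 0.0221).

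**Figure D5:**
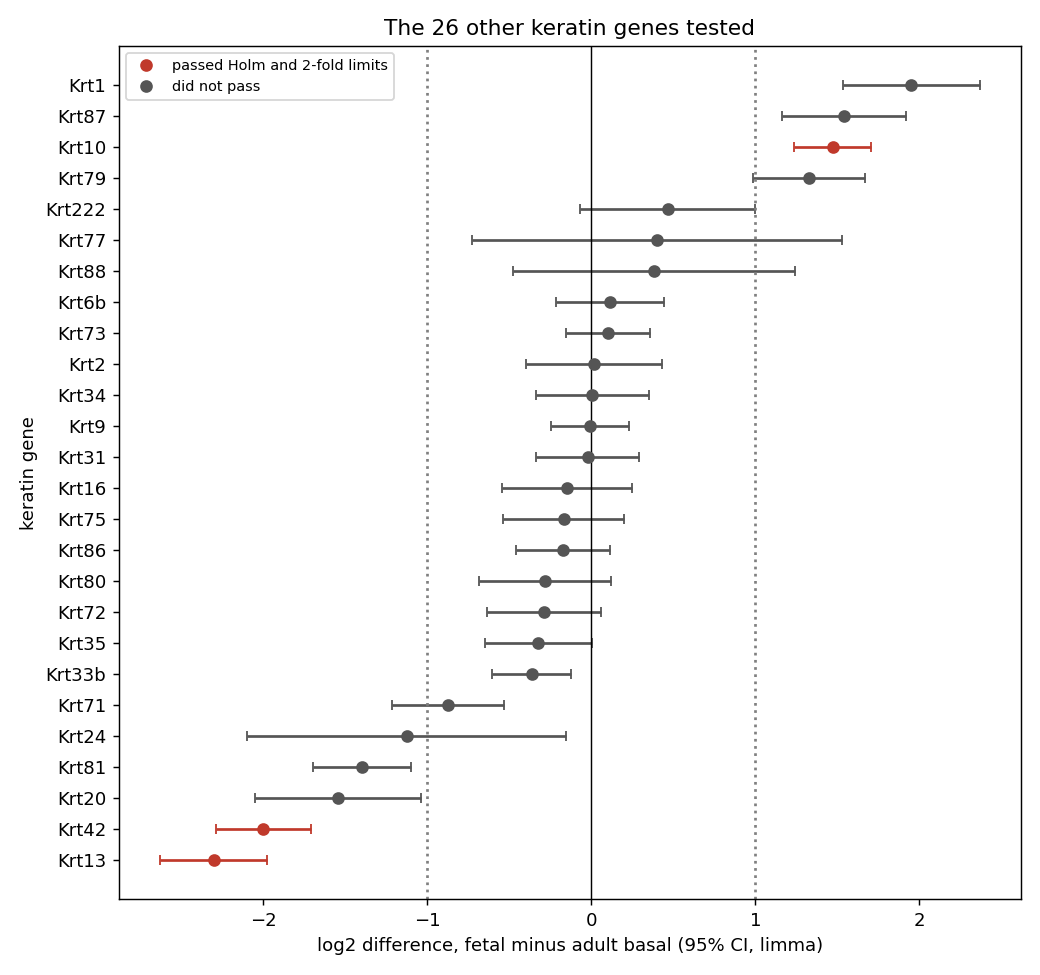
Log2 difference, fetal minus adult basal (x axis), with its 95% confidence interval from limma, for the 26 other keratins that passed the filter on low signal (y axis), with the called genes marked. The median lies at -0.09, with Krt13 and Krt42 called below it and Krt10 above it.

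Genes that anchor keratin filaments were called in both directions. Of 18 genes of desmosomes and hemidesmosomes, 3 were called as higher and 2 as lower in fetal cells, beside 5.92% and 5.18% of all tested probes, with a median of 0.15. The hemidesmosome components Dst, the plakin that ties keratins to the basement membrane, and Col17a1, a transmembrane collagen, were lower (-3.78 and -2.51, limma adjusted p = 0.000806 and 0.000452). The desmosomal cadherin Dsc2 and the plakin Evpl, a part of the cornified envelope, were higher (4.15 and 2.45, limma adjusted p = 0.000763 and 0.00659). Dsg3, another desmosomal cadherin, named after its value was seen, was higher as well (1.62, limma adjusted p = 0.0187). Dsp, the plakin that ties keratins to desmosomes, was at 12.55 ± 0.13 against 14.12 ± 0.16, a difference of -1.57 that was not called (limma adjusted p = 0.078). Plec, its counterpart at hemidesmosomes, gave -0.83 and was not called (limma adjusted p = 1).

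Of 15 transcription factors known for control of epithelial and keratin genes, 6 were called as higher in fetal cells (5.92% of all tested probes) and none as lower, and the median was 0.57. The difference was 7.55 for Elf5, a factor of luminal progenitors, 6.46 for Foxa1, a factor of hormone-sensing luminal cells, 4.59 for Grhl3, a factor of epidermal differentiation, and 2.32 for Ehf, an epithelial Ets factor (limma adjusted p = 7.5e-06, 0.00733, 4.96e-05 and 0.00265). Trp63, the p63 factor of basal cells that acts on Krt5 and Krt14, was at 13.30 ± 0.11 against 13.38 ± 0.06, a difference of -0.08 that was not called (limma adjusted p = 1). None of 9 genes for keratin modification and turnover was called by limma with Holm adjustment, with a median of 0.16. Of these 9, 7 had an unadjusted p under 0.05, where 64.7% of all tested probes did. With Benjamini-Hochberg adjustment at 2-fold 4 passed, 1 higher and 3 lower in fetal cells, where 30.0% of all tested probes passed in either direction.

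Many, though not all, markers of mammary layers other than keratins differed between the populations. Of 10 basal markers 6 were called, all lower in fetal cells (median -4.01, beside 5.18% of all tested probes called that way), led by the contractile genes Myh11 (-8.63), Cnn1 (-6.01), Tagln (-4.87) and Mylk (-4.50). Their normalized signals summed to 87644, 86153 and 72229 in fetal cells and to 910060, 912400 and 894220 in adult cells, with Vim the brightest in fetal and Acta2 in adult cells. For every list, the brightest gene is the one whose probe adds most to the sum, and RNA amounts are not compared between genes. Vim, a mesenchymal and basal filament gene picked after its value was seen, was at 14.91 against 13.77, higher in fetal cells by 1.15 and not called (limma adjusted p = 0.0588). All 10 were well above background on every array, the adult arrays included. Of 15 luminal markers 14 were tested and 10 called, all higher in fetal cells (median 4.20, beside 5.92% of all tested probes). Elf5, Foxa1 and Aldh1a3 (7.11) led them, and the milk protein gene Csn2, not well above background on adult arrays, was at least 13.7-fold higher. Luminal signals summed to 128830, 142220 and 99281 in fetal cells and to 16872, 18890 and 16416 in adult cells, with Wfdc18 the brightest in fetal and Gata3 in adult cells. The 4 tested luminal markers that were not called, Gata3 (0.15), Cd14 (0.14), Ltf (-0.33) and Prlr (-0.35), were named after their values were seen. On adult basal replicate 2, the array with low Krt14, both the basal and the luminal sum were the highest of the 3 adult arrays, by small margins. The part of these layers in the keratin differences was not tested.

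Markers of other cell types were given the same way, beside the shares of all tested probes called as higher (5.92%) and as lower (5.18%) in fetal cells. Of 10 epidermal genes, 9 had a probe, 7 were tested, 6 were well above background on every array, and Krt10 was called as higher in fetal cells (median 0.87). They summed to 3595, 3205 and 2986 in fetal cells and to 2953, 3470 and 3115 in adult cells, and the groups overlapped. With Benjamini-Hochberg adjustment at 2-fold 4 of the 7 passed, where 30.0% of all tested probes did. Of these Krtdap (4.11), Krt1 (1.95) and Krt10 were higher and Sbsn (-1.51) was lower in fetal cells. Krtdap was well above background on 2 of the 3 adult arrays. Krt10 was the brightest in fetal and Sbsn in adult cells. Of 8 salivary genes 7 were tested and 5 were well above background on every array. Dcpp1 (8.60), Aqp5 (5.79) and Smr3a were called as higher in fetal cells, Smr3a at least 69.1-fold because it was not well above background on adult arrays. Dcpp1 was well above background on 2 of the 3 adult arrays, so that its difference is partly set against background. Bhlha15 was called as lower (-3.73), and the median was 0.63. The salivary sum was 20674, 22784 and 23490 against 3177, 3874 and 3123, with Aqp5 the brightest in fetal and Bhlha15 in adult cells.

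Among 8 fibroblast genes Pdgfrb (-4.34) and Dcn (-3.78) were called as lower in fetal cells (median -0.92), where 5.18% of all tested probes were. The fibroblast signals summed to 15662, 14238 and 15754 in fetal cells and to 31942, 48466 and 37800 in adult cells, with Fn1 the brightest. It was highest on adult basal replicate 2. Of 6 muscle genes 3 were tested and Acta1 was called as lower (-4.68, median -0.07, beside the same 5.18%), with sums of 1330, 1418 and 1188 against 21129, 23518 and 21108, with Acta1 the brightest. The other tested muscle genes, Myod1 (-0.07) and Tnnt1 (-0.03), hardly differed and were named after their values were seen. None of 5 tested endothelial or 7 leukocyte genes was called by limma with Holm adjustment (medians -1.40 and -0.31), with 3 and 2 at an unadjusted p under 0.05 (64.7% of all tested probes) and the same numbers passing with Benjamini-Hochberg adjustment at 2-fold (30.0%). The endothelial sums were 12376, 10898 and 12730 against 13093, 14078 and 11625, with Kdr the brightest. The leukocyte sums were 15930, 12150 and 14029 against 13863, 15275 and 16469, with Csf1r the brightest, and the sums of both lists overlapped between populations. Kdr (-0.04) and Csf1r (-0.06) hardly differed. The genes that passed with Benjamini-Hochberg adjustment were all lower in fetal cells, with arrays that did not overlap. They were the endothelial Cdh5 (-2.70), Vwf (-1.56) and Cldn5 (-1.40) and the leukocyte Cd52 (-4.39) and Lyz2 (-1.76). Cd52 was well above background on 2 of the 3 fetal arrays. Some list genes named here passed the filter on low signal, like Krt6a, only through the population where they were higher. These were Myh11, Elf5, Dsc2, Dsg3, Csn2, Krt1, Krtdap, Smr3a, Dcpp1, Pdgfrb, Cdh5, Cd52 and Lyz2. Both populations had been sorted as CD31-CD45-Ter119-, which removes endothelial and blood cells, and the BP-1- gate was set for the adult cells only. The part of any of these cell types in the keratin differences was not tested.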

How the data were processed

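Each of 6 samples, 3 fetal (E18.5) and 3 adult basal, was hybridized to 1 one-colour Agilent SurePrint G3 Mouse GE 8x60K array. The labels name a low-input amplification kit with a T7 primer, and the methods a whole-transcript kit. The authors deposited the spot intensity of each array, the processed signal of Feature Extraction 11.0.1.1, which is linear and corrected for background within the array only. They also deposited log2 values that the authors had quantile normalized in GeneSpring.

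The processed signal gave the main values. After removal of control spots and of 104 to 326 outlier spots per array, log2 signals were averaged over replicate spots of a probe and quantile normalized over the 6 arrays. Probes were matched by unversioned accession to a RefSeq table (GRCm38.p6), which named 27235 of 55681 probes with 20660 genes, including all 10 listed keratins. Probes below the boundary between the lowest and middle of 3 k-means clusters (100 starts) in both populations were removed, leaving 20448. Probe sequences were not used here, so cross-hybridization between related keratins was not checked. Differences were fitted with lmFit and eBayes in limma 3.58.1 (R 4.3.3) and adjusted by Holm's method, following the methods. A gene with several probes was counted through its brightest one. An at-least fold sets the bright group against the dimmest signal well above background. Replicate numbers were not used as pairs in the main fit, and the sources do not say whether the samples were paired. Deviations from the group mean correlated at -0.03, 0.09 and 0.05 between arrays of the same number, which cannot settle it. Python 3.11.15 and pandas 2.3.3 served to search promoter windows, and matplotlib 3.10.9 to draw the plots. Scripts were tested on simulated data.

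Every listed keratin is named with all its probes. Other keratins and the lists (filament anchoring, regulators, turnover, and basal, luminal, epidermal, salivary, fibroblast, endothelial, leukocyte and muscle markers) are given as counts, with the largest called differences (up to 5 keratins, up to 4 genes a list) and Trp63, Dsp, Plec and Elf5 whatever their values. Epidermal, endothelial and leukocyte genes that passed only with Benjamini-Hochberg adjustment were named after their values were seen. The 3 genes most alike were named for Krt14 and Krt18. The members and lists were chosen with earlier results of these data known. The alternatives were other normalizations, background correction (normexp on the median spot signal, offset 50), an offset of 16, other filters and adjustments, slide and replicate blocks, other rules for a gene's probe and leaving out each array. The precision is limited by 3 arrays in each population, whose p-values measure the spread between these samples.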

Additional observations from a re-analysis of the deposited data

How the results depend on the processing

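No listed keratin changed direction in any of up to 17 alternatives. Krt17 was called in all 17, Krt15 in 16, Krt5 in 15 and its second probe in 13, and Krt14, Krt8 and Krt18 in 0. With Benjamini-Hochberg adjustment 7 of the 10 keratins were called, as were 6133 probes in all in place of 2270. With normexp background correction 4 keratins were called (Krt23 joined, limma adjusted p = 0.024), among 2655 of 15714 probes, and with slide as a block 4 (Krt6a joined), among 1541 of 20448. With 1 array left out, between 1 and 4 keratins were called. The lowest was without fetal replicate 1, where only Krt17 was called. Without adult basal replicate 1 the number was 2, since Krt5 was lost, and without adult basal replicate 2 it was 4, since Krt6a joined. Over all probes, leaving out 1 array gave 952 to 2014 calls, fewer in every case than with 6 arrays. Without the filter on low signal 1182 probes were called, and the cause was not tested. The replicate block gave 1302 calls and the same number of keratins, 3, and changed no call of a listed keratin. The shift of Krt5 minus Krt14 ranged from -3.15 to -2.08 with 1 array left out, and that of Krt8 minus Krt18 from -0.20 to -0.03. That of Krt7 minus Krt19 ranged from -0.27 to 0.13 and changed sign without fetal replicate 3 (0.016) and without adult basal replicate 2 (0.13); the cause was not tested. Of the listed genes, Krt6a did not pass the filter after normexp correction.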
